A study of Lactuca sativa with 18 samples.

Results

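Gene expression in cut leaf midribs of the romaine lettuce (Lactuca sativa) cultivar Clemente (CL) was compared with that of its low-browning parent Parris Island Cos (PC) after 3 days of cold storage. The comparison used 4 of the 18 samples of the study, 2 CL and 2 PC samples of day 3, chosen by cultivar and day alone. Per the labels, PC browns little after cutting, the other parent Tall Guzmaine (TG) browns strongly, and CL is a line of medium browning obtained from the progeny of PC crossed with TG. The heads of all cultivars were cooled after harvest, trucked under refrigeration and kept cold before the midribs were excised, cut by hand and frozen at once (day 0) or after 2 or 3 days at the same low temperature. The question here is which genes of the intermediate line stood apart from the low-browning parent at the end of storage, and where the high-browning parent and the day 0 libraries lay at the same genes.

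Enzymatic browning follows wounding. Cutting induces the phenylpropanoid pathway, in which phenylalanine is converted to phenolic acids, and polyphenol oxidases and peroxidases oxidise such phenolics to quinones that condense into brown pigments. In lettuce midribs this discolouration limits the shelf life of cut produce. The deposited tables name each gene only by its NCBI GeneID, and the reference table used here pairs these with symbols, gene types and gene order but with no function. Genes are therefore described by their level, their pattern over cultivars and days, their annotated type and their neighbours, and no role is given to any of them. The midrib label could not be checked against marker genes for the same reason. A GeneID with no entry in the table is written GeneID_ followed by its number.

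Totals were 59153901 and 35739638 counts in the CL libraries of day 3 and 51677762 and 37840518 counts in those of PC. Across genes, the log2 CPM (counts scaled to a common library size with TMM factors) of the replicates had a Pearson correlation of 0.979 in CL and 0.974 in PC. All 12 libraries of day 0 and day 3 entered the model. The day 2 columns were left out because almost all of their larger values follow from the day 0 and day 3 columns. Whether replicates derive from different heads is not stated in the labels. The p-values given here therefore reflect the spread among the samples alone, and part of it may be technical. Uncut midribs were not sampled, and the effect of cutting cannot be told apart from that of storage.

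On day 3, 199 of 21757 tested genes differed between CL and PC, which is 0.915% of the genes tested (edgeR quasi-likelihood test, Benjamini-Hochberg adjusted p under 0.05). Of these, 112 were higher in CL (0.515% of the tested genes) and 87 were lower (0.4%). A difference of at least 2-fold was found for 194 of them (0.892% of the tested genes), 110 higher and 84 lower. A log2 ratio below is the fitted log2 fold change, with its standard error (SE), and paired CPM values are those of replicates 1 and 2. In all 199 genes the CL libraries lay wholly above or wholly below the PC libraries, which was also the case for 51.7% of all tested genes. The median absolute log2 fold change over all tested genes was 0.30 when a group at 0 counts was placed at 3 counts per library, against medians of 3.93 for the genes called higher and -3.27 for those called lower on the same scale. In bulk tissue, fewer cells of a type and less RNA per cell cannot be told apart. The count of called genes was 60 without PC replicate 1 and 65 without PC replicate 2 of day 3, 70 without CL replicate 1 and 75 without CL replicate 2. It was 1139 in a fit of the 6 day 3 libraries alone, 2128 in a fit of only the 4 libraries compared and 677 with DESeq2.

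**Figure D1:**
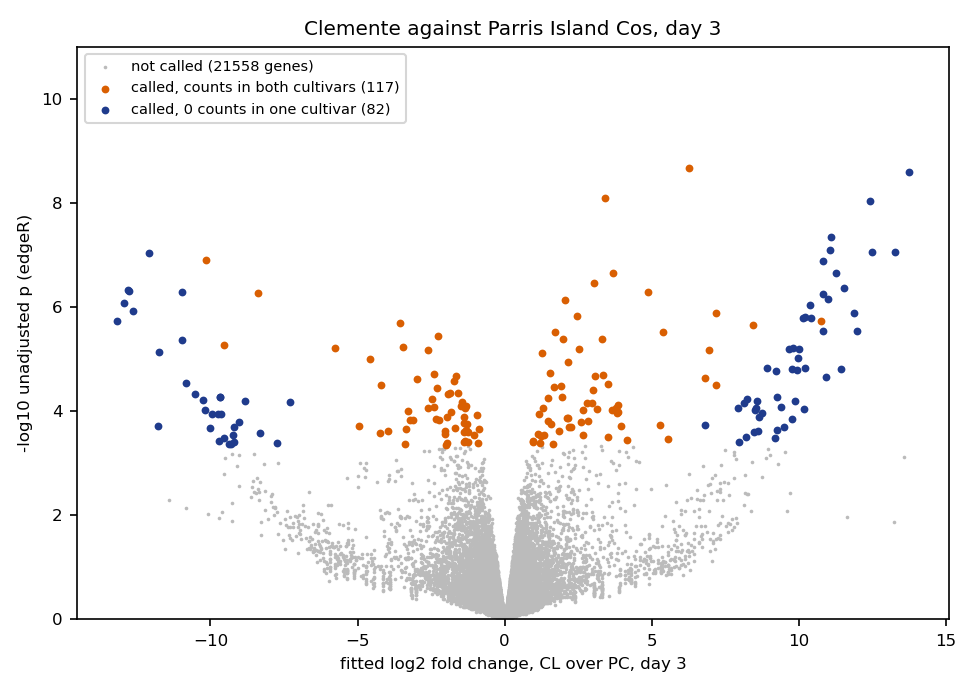
Fitted log2 fold change of CL over PC on day 3 (x axis) against -log10 of the unadjusted p (y axis) for each tested gene. Grey points were not called, orange points were called with counts in both cultivars, and the 82 blue points were called with 0 counts in one of them; the blue points form the outer wings on both sides.

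Many of the called genes had 0 counts in one of the cultivars. Whether 0 counts stand for no transcript or for reads not assigned to the gene was not tested. Among the 112 genes higher in CL, 50 had 0 counts in both PC libraries of day 3, and 47 of these had 0 counts in the PC libraries of day 0 as well. All 47 had counts in the 4 CL libraries. The 50 genes had CL means of 0.302 to 37.5 CPM with a median of 2.63 CPM. Against a floor of 3 counts per library they were at least 4.79-fold to at least 596-fold higher in CL. Over all tested genes, 108 had counts in each CL library and 0 in each PC library.

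At most of these genes TG had counts too. Of the 47 genes, 41 had counts in all 4 TG libraries, with day 3 means of 0.419 to 52.5 CPM, and the other 6 had 0 counts in all of them. The protein-coding gene LOC111883319 stood at 14.8 and 16.7 CPM in the CL libraries of day 3 and at 16.5 and 18.7 CPM in those of TG, with 0 counts in all 4 PC libraries. It was at least 250.2-fold higher in CL than in PC (adjusted p = 0.000217, edgeR). The protein-coding gene LOC111877802 gave 16.2 and 13.5 CPM in CL and 16.9 and 20.1 CPM in TG, again with 0 counts in PC, and was at least 236-fold higher (adjusted p = 4.89e-05, edgeR). At both genes the CL and TG libraries lay in a like range and PC had no counts.

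GeneID_111893801 had 8.06 and 8.16 CPM in CL and 7.65 and 6.08 CPM in TG, and was at least 129-fold above PC (adjusted p = 0.000579, edgeR). GeneID_111911208 had 5.93 and 5.97 CPM in CL and 5.46 and 5.64 CPM in TG, at least 94.5-fold above PC (adjusted p = 0.000199, edgeR). The long non-coding RNA gene LOC111881638 had 7.29 and 6.08 CPM in CL and 6.19 and 4.44 CPM in TG, at least 106-fold above PC (adjusted p = 0.000378, edgeR). In these 3 genes the 2 CL libraries lay close together, and PC had 0 counts on both days. At the protein-coding gene LOC111882262 the gap between TG and CL was wider than at these 3 genes, but was not called (adjusted p = 0.59, edgeR). The gene had 3.08 and 3.19 CPM in TG and 7.71 and 7.32 CPM in CL. It was at least 119-fold above PC (adjusted p = 0.00542, edgeR), and its adjusted p was 0.063 without PC day 3 replicate 1. A further pair of this kind by the naming rule, LOC111921163 and GeneID_111886954, exceeded PC by at least 596 times and at least 424 times.

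**Figure D2:**
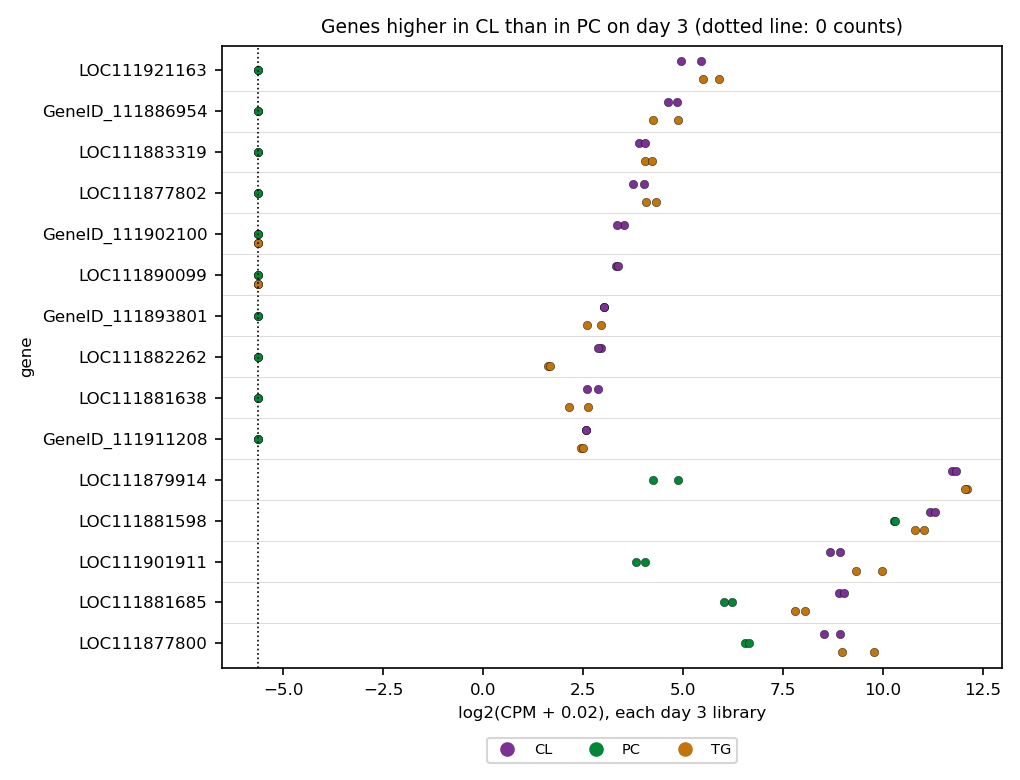
Level of each day 3 library, as log2(CPM + 0.02), for the 15 genes named as higher in CL, with the rows for CL, PC and TG drawn one below the other in each gene. The upper 10 genes have PC at the dotted line, which marks 0 counts, and at LOC111890099 and GeneID_111902100 TG lies there too.

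The 6 genes with 0 counts in both parents were LOC111890099, GeneID_111902100, GeneID_111895254, LOC111907886, LOC111902098 and GeneID_111914279, the last 4 chosen after their values were seen. LOC111890099, a long non-coding RNA gene, stood at 10.03 and 10.3 CPM in CL on day 3 and at 19.2 and 19.3 CPM on day 0. It had 0 counts in all 8 libraries of PC and TG, and was at least 161-fold higher than in PC (adjusted p = 0.00102, edgeR) and differed from TG as well (adjusted p = 0.00173, edgeR). It overlaps another annotated gene, LOC111890101, so without a stated strand setting its reads cannot be assigned with certainty. GeneID_111902100 stood at 11.6 and 10.2 CPM on day 3 and at 10.9 and 8.93 CPM on day 0 in CL, and was at least 173-fold above PC (adjusted p = 0.00167, edgeR) and different from TG (adjusted p = 0.00269, edgeR). Both genes thus had counts in every CL library and in no parental one.

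The other 4 had lower levels. GeneID_111895254 had 6.15 and 4.504 CPM in CL, at least 84.7-fold above PC (adjusted p = 0.00674, edgeR), and its adjusted p was 0.0598 when PC day 3 replicate 1 and 0.0642 when CL day 3 replicate 1 was left out. Its call against TG was lost without the latter too (0.0692). LOC111907886 had 3.59 and 2.76 CPM, LOC111902098 1.79 and 2.196 CPM and GeneID_111914279 1.55 and 1.802 CPM in CL. These 3 were called at adjusted p = 0.0177, 0.029 and 0.0311 (edgeR), but each call was lost whichever of the 4 libraries compared was left out, with adjusted p from 0.106 to 0.186. Among all tested genes, 16 had counts in each CL library and 0 in each PC and TG library.

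Of the genes higher in CL, 62 had counts in PC on day 3, and the ratio of the mean CPM ran from 1.93 to 1683 with a median of 6.63. The protein-coding gene LOC111879914 had 3379 and 3621 CPM in CL and 4384 and 4302 CPM in TG, against 29.6 and 19.01 CPM in PC. CL and TG lay together, far above both PC libraries, and CL was 144-fold above PC (log2 ratio 7.17, SE 0.98, adjusted p = 0.00904, edgeR). CL was far above PC on day 0 too, with 5755 and 8136 CPM against 14.3 and 1.16 CPM. On that day TG, at 4646 and 3979 CPM, lay below both CL libraries. The day 3 call was lost when PC day 3 replicate 1 (adjusted p = 0.128) or 2 (0.16) was left out, and with no filter on low counts (0.0609).

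LOC111901911 had 410.0 and 488 CPM in CL, 646 and 1009 CPM in TG and 16.7 and 14.2 CPM in PC. No CL or TG library came near the PC libraries, and the difference between CL and PC was 29.03-fold (log2 ratio 4.86, SE 0.43, adjusted p = 0.000579, edgeR). The call held whichever of the 4 libraries was left out. LOC111881685 had 477 and 528 CPM in CL, 223 and 267 CPM in TG and 75.6 and 64.7 CPM in PC, so that TG lay between (7.16-fold, log2 ratio 2.84, SE 0.48, adjusted p = 0.0244, edgeR). The call was lost whichever of the 4 libraries was left out, with adjusted p from 0.131 to 0.299, nor with no filter on low counts (0.0644). LOC111877800 had 373 and 492 CPM in CL against 93.2 and 101 CPM in PC, with TG at 509 and 873 CPM (4.45-fold, log2 ratio 2.15, SE 0.27, adjusted p = 0.00432, edgeR), and lost its call without PC day 3 replicate 1 (adjusted p = 0.0966) or 2 (0.0729). The smallest ratio among these 62 genes was that of LOC111881598, which had 2332 and 2538 CPM in CL against 1256 and 1272 CPM in PC, a 1.93-fold difference (log2 ratio 0.95, SE 0.18, adjusted p = 0.046, edgeR) that passed in none of the fits without one of these libraries, where adjusted p was 0.255 to 0.388, nor without a scaling factor (0.084) nor with the replicate number as a block (0.0828).

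Several other genes, chosen after their values were seen, were scarce in PC and well expressed in CL. GeneID_111902482 had 96.2 and 99.3 CPM in CL, 68.9 and 74.7 CPM in TG and 8.95 and 9.46 CPM in PC (10.6-fold, log2 ratio 3.41, SE 0.20, adjusted p = 4.89e-05, edgeR). LOC111879795 had 160.0 and 173 CPM in CL, 351 and 239 CPM in TG and 1.64 and 1.04 CPM in PC (124-fold, adjusted p = 0.00279, edgeR), a call lost without PC day 3 replicate 1 (0.063) or 2 (0.072). LOC111912931 had 76.3 and 75.6 CPM in CL, 88.1 and 63.5 CPM in TG and 2.42 and 1.21 CPM in PC (41.8-fold, log2 ratio 5.37, SE 0.51, adjusted p = 0.00167, edgeR). In all 3 genes the TG libraries lay far above the PC libraries, as those of CL did. The log2 fold change of LOC111912931 moved to 5.97 without PC day 3 replicate 1. LOC111908106 had 28.6 and 31.3 CPM in CL and 25.8 and 32.1 CPM in TG but only 2 and 6 counts in PC, a ratio of mean CPM of 332 (adjusted p = 0.00131, edgeR), with a log2 fold change of 8.44 that was 7.66 without PC day 3 replicate 1 and 9.64 without replicate 2.

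A pattern of another kind was seen at LOC111882072, a protein-coding gene with 0 counts in all 6 libraries of day 0. On day 3 it stood at 37.2 and 30.96 CPM in CL, 26.9 and 29.3 CPM in TG and 3.92 and 2.99 CPM in PC. It had thus appeared in all 3 cultivars by day 3, and CL was 9.86-fold above PC (log2 ratio 3.30, SE 0.27, adjusted p = 0.00211, edgeR). LOC111897821 also rose in storage, from 0.435 and 0.517 CPM on day 0 to 52.99 and 72.6 CPM on day 3 in CL and from 0.0927 and 0.0482 CPM to 9.02 and 10.8 CPM in PC. CL was 6.33-fold above PC on day 3 (log2 ratio 2.66, SE 0.43, adjusted p = 0.0179, edgeR), a call that was lost whichever of the 4 libraries was left out (adjusted p from 0.0783 to 0.264). Both genes were chosen after their values were seen.

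The genes lower in CL also fell into those with 0 counts in CL and those with reduced counts. Of the 87, 32 had 0 counts in both CL libraries of day 3, and 25 of these had 0 counts in the CL libraries of day 0 too. All 25 had counts in the 4 PC libraries. PC means of the 32 genes ran from 0.425 to 25.4 CPM with a median of 2.50 CPM, and PC was at least 6.25-fold to at least 373-fold above CL at the same floor. Of the 25, 18 had 0 counts in all 4 TG libraries as well, and 7 had counts in all of them. Over all tested genes, 99 had counts in each PC library and 0 in each CL library.

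The pseudogene LOC111885247 had 27.1 and 23.6 CPM in PC on day 3 and 0 counts in the CL and TG libraries of that day, and was at least 373-fold higher in PC (adjusted p = 0.00118, edgeR). On day 0, CL had 0 and 4 counts. GeneID_111876579 had 19.1 and 23.7 CPM in PC and 0 counts in all CL and TG libraries of both days, at least 315-fold (adjusted p = 0.000773, edgeR). The long non-coding RNA genes LOC111891878 and LOC111878188 had 19.5 and 18.3 CPM and 17.9 and 17.03 CPM in PC, at least 278-fold (adjusted p = 0.000579, edgeR) and at least 257-fold (adjusted p = 0.00101, edgeR) above CL. All 4 genes were expressed in each PC library and had at most 4 counts in any CL library of either day.

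The protein-coding gene LOC111881555 had 19.1 and 19.6 CPM in PC and 0 counts in CL on day 3, where it was at least 284-fold higher in PC (adjusted p = 0.000579, edgeR). It was not wholly absent from CL, with 7 and 5 counts on day 0. LOC111912946 had 8.67 and 10.2 CPM in PC and 0 counts in all CL and TG libraries, at least 139-fold (adjusted p = 0.00289, edgeR). The pseudogene LOC111906289 had 10.9 and 8.298 CPM in PC, at least 141-fold (adjusted p = 0.0286, edgeR), and 10 and 16 counts in TG. This last call was lost whichever of the 4 libraries was left out (adjusted p from 0.142 to 0.268) and with no filter on low counts (0.061), and the gene overlaps an annotated neighbour, LOC122194446.

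**Figure D3:**
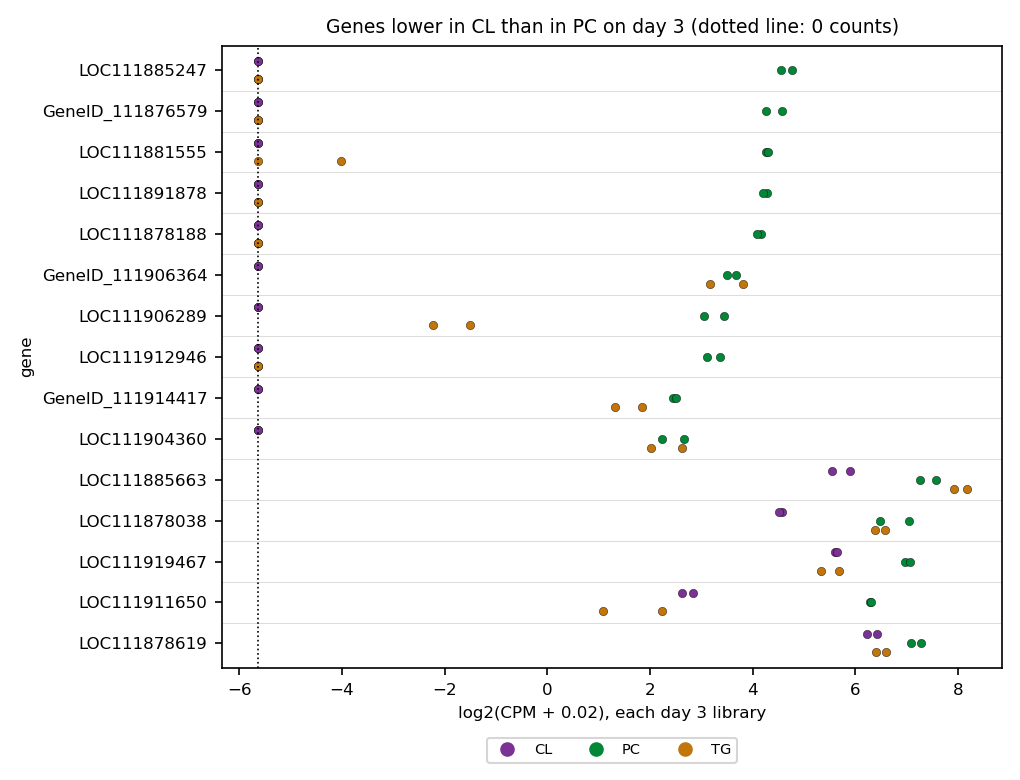
Level of each day 3 library, as log2(CPM + 0.02), for the 15 genes named as lower in CL, drawn by cultivar. The upper 10 genes have both CL libraries at the dotted line of 0 counts; TG joins them there at LOC111885247, GeneID_111876579, LOC111891878, LOC111878188 and LOC111912946, and lies near PC at GeneID_111906364 and LOC111904360.

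The 7 called genes with counts in all parental libraries and 0 in CL were LOC111877098, LOC111890387, GeneID_111898398, LOC111904360, GeneID_111906364, GeneID_111914417 and GeneID_111917561. GeneID_111906364 had 12.7 and 11.3 CPM in PC and 14.03 and 9.04 CPM in TG on day 3 and 0 counts in all 4 CL libraries. It was at least 176-fold higher in PC than in CL (adjusted p = 0.000217, edgeR), and CL differed from TG too (adjusted p = 0.000407, edgeR). The long non-coding RNA gene LOC111904360 had 6.29 and 4.68 CPM in PC and 6.19 and 4.02 CPM in TG, at least 80.7-fold above CL in PC (adjusted p = 0.000579, edgeR; against TG, adjusted p = 0.00113, edgeR). GeneID_111914417 had 5.42 and 5.64 CPM in PC and 2.47 and 3.57 CPM in TG, at least 81.4-fold (adjusted p = 0.00216, edgeR; against TG, adjusted p = 0.00423, edgeR). In these 3 genes every parental library had counts on both days and both tests held whichever library of the groups compared was left out. The other 4, chosen after their values were seen, had PC means that put CL at least 8.56-fold to at least 32.6-fold lower, with adjusted p from 0.0134 to 0.0462 (edgeR). Each call was lost whichever of the 4 libraries was left out, where adjusted p was 0.0667 to 0.341. Of all tested genes, 11 had 0 counts in each CL library and counts in all 8 libraries of PC and TG.

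Of the genes lower in CL, 55 had counts in CL on day 3, and the ratio of mean CPM ran from 1.81 to 995 with a median of 4.03. LOC111911650 had 7.11 and 6.14 CPM in CL, 4.67 and 2.12 CPM in TG and 78.1 and 79.1 CPM in PC. Both PC libraries lay far above the others (11.9-fold, log2 ratio -3.57, SE 0.37, adjusted p = 0.00125, edgeR), and the call held whichever library was left out. The gene rose in storage in both cultivars, from 1.06 and 0.517 CPM in CL and 10.5 and 9.92 CPM in PC on day 0. LOC111919467 had 49.04 and 50.1 CPM in CL, 51.3 and 40.5 CPM in TG and 125 and 134 CPM in PC, so that CL and TG again lay together (2.61-fold, log2 ratio -1.39, SE 0.25, adjusted p = 0.0332, edgeR). LOC111878619 had 74.9 and 85.4 CPM in CL and 136 and 155 CPM in PC, the smallest ratio among these 55 genes (1.81-fold, log2 ratio -0.86, SE 0.15, adjusted p = 0.0303, edgeR). Both calls of the latter pair were lost whichever of the 4 libraries was left out (adjusted p from 0.18 to 0.312 and from 0.126 to 0.375) or with the replicate number as a block (0.0539 and 0.055).

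A pair of genes, chosen after their values were seen, had a handful of counts in a single CL library. The long non-coding RNA gene LOC111891093 had 26.5 and 29.6 CPM in PC and 0 and 2 counts in CL, a ratio of summed counts, scaled by library size, of 1302 with a 95% exact counting interval of 360.1 to 10760 that leaves out the spread between replicates (adjusted p = 0.000262, edgeR). Its fitted log2 fold change of -10.16 was -8.89 without CL day 3 replicate 1 and -13.35 without replicate 2. The pseudogene LOC111893293 had 50.2 and 52.2 CPM in PC and 0 and 6 counts in CL, with 0 counts in all TG libraries (606-fold, adjusted p = 0.00255, edgeR). Its log2 fold change of -9.53 was -8.22 without CL day 3 replicate 1 and -14.22 without replicate 2, and DESeq2 gave an adjusted p of 0.124.

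The position of TG was counted for every called gene as a level only, since all these comparisons share libraries. Of the 112 genes higher in CL, the TG mean of day 3 lay between those of PC and CL for 58, above that of CL for 41 and at or below that of PC for 13. Of the 87 genes lower in CL, it lay between for 44, at or below the CL mean for 35 and at or above the PC mean for 8. These positions were not counted over all tested genes, and the called genes were selected for a gap between CL and PC. At the 50 genes with 0 counts in PC, TG could not lie below PC. As a different measure, TG differed from PC on day 3 at 1.45% of all tested genes.

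For some of the called genes whose CL mean lay outside those of both parents, CL was also read against TG on day 3, a test in which 0.786% of the tested genes were called. Except for LOC111885663 and LOC111878038, they were chosen after their values were seen. LOC111906252 had 161 and 192 CPM in CL, 43.8 and 41.4 CPM in PC and 33.1 and 39.2 CPM in TG on day 3. The parents lay together and CL was 4.15-fold above PC (log2 ratio 2.05, SE 0.19, adjusted p = 0.000693, edgeR) and above TG (log2 ratio 2.29, SE 0.19, adjusted p = 0.000759, edgeR), and both calls held whichever library was left out. The day 0 libraries showed the same order, with 157 and 206 CPM in CL, 32.7 and 40.1 CPM in PC and 25.01 and 27.8 CPM in TG.

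LOC111901583 had 39.7 and 41.5 CPM in CL on day 3, 0 and 2 counts in PC and 10 and 16 counts in TG. The ratio of summed counts, scaled by library size, was 1970 over PC with a 95% exact counting interval of 544.9 to 16270 (adjusted p = 0.00118, edgeR), and CL also exceeded TG (log2 ratio 7.27, SE 0.76, adjusted p = 0.00317, edgeR). In CL the level on day 0 was 7.78 and 8.73 CPM, below both day 3 libraries. The fitted log2 fold change over PC of 10.75 was 9.63 without PC day 3 replicate 1 and 13.89 without replicate 2, and the gene overlaps an annotated pseudogene, LOC111901584. LOC111914027 had 20.1 and 20.7 CPM in CL, 3.42 and 2.46 CPM in PC and 2.35 and 1.49 CPM in TG (6.93-fold over PC, log2 ratio 2.79, SE 0.42, adjusted p = 0.015, edgeR; over TG, adjusted p = 0.00647, edgeR). Its call against PC was lost whichever of the 4 libraries was left out (adjusted p from 0.0889 to 0.192). The call against TG was lost without TG day 3 replicate 1 at LOC111901583 (0.0535) and LOC111914027 (0.0535), and at the latter also without TG day 3 replicate 2 (0.0858).

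LOC111878038 was lower in CL than in either parent on day 3, at 23.7 and 22.7 CPM in CL, 133 and 89.4 CPM in PC and 95.1 and 83.5 CPM in TG. The CL libraries lay below all 4 parental ones, 4.77-fold under PC (log2 ratio -2.26, SE 0.25, adjusted p = 0.00188, edgeR) and under TG as well (log2 ratio -1.94, SE 0.25, adjusted p = 0.00535, edgeR). LOC111885663 had 46.6 and 59.4 CPM in CL, 153 and 190.0 CPM in PC and 244 and 288 CPM in TG (3.24-fold under PC, log2 ratio -1.70, SE 0.30, adjusted p = 0.03, edgeR; under TG, adjusted p = 0.00661, edgeR). Its call against PC was lost whichever of the 4 libraries was left out (adjusted p from 0.126 to 0.346). Against TG, the call of LOC111878038 was lost without CL day 3 replicate 1 (0.0828) or 2 (0.082), and that of LOC111885663 without CL day 3 replicate 1 (0.12), CL day 3 replicate 2 (0.0565) or TG day 3 replicate 2 (0.0522). GeneID_111901946 and LOC111918965 were also below both parents on day 3, and are described with day 0, where they were not.

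**Figure D4:**
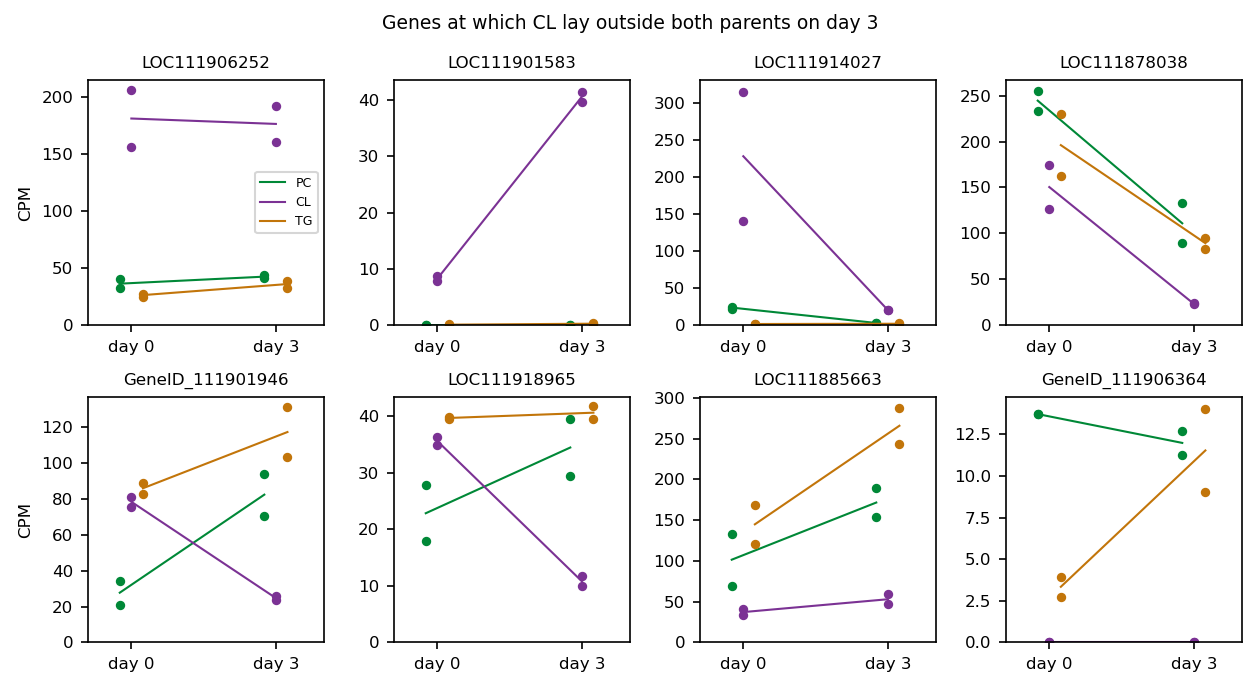
CPM of each library on day 0 and day 3 at 8 genes where CL lay outside both parents on day 3, with points for libraries and lines through the group means of PC, CL and TG. CL is uppermost at LOC111906252, LOC111901583 and LOC111914027 and lowest on day 3 at the other 5, while at GeneID_111901946 and LOC111918965 it lies above PC on day 0.

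The day 0 libraries are a separate set in which the same contrast could be tested at the time of cutting. On day 0, 9954 genes differed between CL and PC, 45.8% of those tested, with 5179 higher in CL (23.8%) and 4775 lower (21.9%). Of the 112 genes higher in CL on day 3, 105 were higher on day 0, none was lower and 7 were not called. Of the 87 lower genes, 79 were lower on day 0, 3 were higher and 5 were not called. The 184 genes called in the same direction on both days were 92.5% of the day 3 list and 1.85% of the day 0 list. The median absolute log2 difference over all tested genes was 1.02 on day 0 and 0.31 on day 3. Without a scaling factor, the day 0 split was 3103 higher and 7851 lower.

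**Figure D5:**
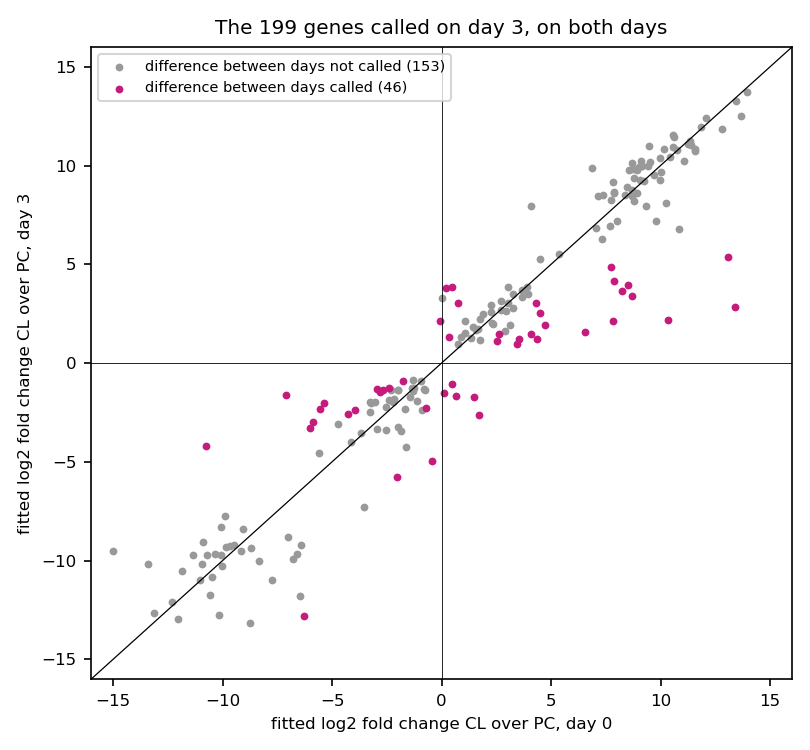
Fitted log2 fold change of CL over PC on day 0 (x axis) and on day 3 (y axis) for the 199 genes called on day 3, with the line of equal values. The 46 coloured genes are those whose difference between the days was itself called; most points lie along the line, and 3 genes called in opposite directions on the 2 days lie at the lower right, higher in CL on day 0 and lower on day 3.

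The difference between the days was tested directly, as the CL to PC log2 fold change of day 3 minus that of day 0. It was called for 46 of the 199 genes, against 23.8% of all tested genes (10.6% positive and 13.2% negative). Of the 24 that were higher in CL on day 3, the difference was larger on day 3 for 5 and smaller for 19, and of the 22 lower ones it was larger for 9 and smaller for 13. For genes with a cultivar at 0 counts on both days this test has no usable error, so they could not be among the 46. Among the 199 these were 47 genes higher in CL and 25 lower, so the count of 46 and the share of 23.8% are not directly comparable.

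At several genes that rose in PC during storage the contrast was narrower on day 3. GeneID_111902482 rose in PC from 0.603 and 0.385 CPM on day 0 to 8.95 and 9.46 CPM on day 3 and fell in CL from 231 and 179.5 CPM to 96.2 and 99.3 CPM (difference -5.28, SE 0.30, adjusted p = 9.79e-05, edgeR). LOC111881685 rose in PC from 0.0927 and 0.241 CPM, which were 4 and 10 counts, to 75.6 and 64.7 CPM, while CL went from 2803 and 823 CPM to 477 and 528 CPM (difference -10.55, SE 0.83, adjusted p = 0.000243, edgeR). LOC111901911 rose in PC from 4.17 and 1.88 CPM to 16.7 and 14.2 CPM, with 703 and 598 CPM in CL on day 0 (difference -2.89, SE 0.54, adjusted p = 0.00539, edgeR). In each of these 3 genes CL was still above PC on day 3, and the test of the difference held in every alternative run. Its size at LOC111881685 was -9.41 without CL day 0 replicate 1, -11.18 without CL day 0 replicate 2 and -11.37 without PC day 0 replicate 2, and at LOC111901911 it was -3.57 without PC day 0 replicate 1.

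At 3 genes CL and PC differed on both days in opposite directions, each difference being called. GeneID_111901946 was higher in CL on day 0, at 75.6 and 81.1 CPM against 34.4 and 20.98 CPM in PC (log2 ratio 1.50, SE 0.24, adjusted p = 0.000711, edgeR). On day 3 it was lower in CL, at 23.6 and 25.8 CPM against 94.1 and 70.6 CPM (log2 ratio -1.74, SE 0.24, adjusted p = 0.00796, edgeR), and the difference between the days was called (difference -3.24, SE 0.34, adjusted p = 0.000606, edgeR). It had fallen in CL and risen in PC, with TG at 88.9 and 82.9 CPM on day 0 and 131 and 103 CPM on day 3. The day 3 call was lost when PC day 3 replicate 1 (adjusted p = 0.0818), CL day 3 replicate 1 (0.129) or CL day 3 replicate 2 (0.0887) was left out. LOC111918965 had 36.3 and 34.8 CPM in CL and 27.8 and 17.9 CPM in PC on day 0, and 11.7 and 9.91 CPM in CL and 29.3 and 39.5 CPM in PC on day 3 (difference -2.31, SE 0.32, adjusted p = 0.00142, edgeR). CL had fallen below every parental library, with TG at 39.8 and 39.5 CPM on day 0 and 41.7 and 39.4 CPM on day 3. Its day 3 call (adjusted p = 0.0066, edgeR) was lost without PC day 3 replicate 2 (0.091), CL day 3 replicate 1 (0.0688) or CL day 3 replicate 2 (0.106). LOC111909355 had 5.002 and 6.03 CPM in CL and 1.55 and 1.81 CPM in PC on day 0, and 0.412 and 0.563 CPM and 2.98 and 2.99 CPM on day 3 (difference -4.33, SE 0.58, adjusted p = 0.00132, edgeR). Its day 3 call (adjusted p = 0.0173, edgeR) was lost whichever of the 4 libraries was left out (0.124 to 0.264).

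Other patterns of change between the days are shown by 4 genes. LOC111878038 fell in CL from 175 and 126 CPM on day 0 to 23.7 and 22.7 CPM and in PC from 255 and 234 CPM to 133 and 89.4 CPM, so that the difference grew (difference -1.55, SE 0.34, adjusted p = 0.0102, edgeR). The pseudogene LOC111910392 fell in CL from 5.27 and 10.8 CPM to 20 and 0 counts, with 13.3 and 8.38 CPM in PC on day 0 and 5.49 and 6.78 CPM on day 3 (difference -4.53, SE 1.07, adjusted p = 0.0149, edgeR). That difference was -10.67 without CL day 3 replicate 1, -3.71 without CL day 3 replicate 2 and -3.92 without CL day 0 replicate 2. Its day 3 log2 fold change of -4.96 (adjusted p = 0.028, edgeR) was -11.10 without CL day 3 replicate 1 and -4.15 without replicate 2, and its call was lost without PC day 3 replicate 1 (0.126), PC day 3 replicate 2 (0.16) or CL day 3 replicate 2 (0.0638), and with the replicate number as a block (0.0589). LOC111912424 rose from 0 counts in CL and 0.417 and 0.337 CPM in PC to 18.1 and 17.7 CPM and 59.4 and 49.2 CPM (adjusted p = 0.0119, edgeR on day 3), a call lost whichever of the 4 libraries was left out (0.0756 to 0.157). LOC111890286 fell in both, from 1.305 and 0.862 CPM to 0 counts in CL and from 9.78 and 15.8 CPM to 26 and 16 counts in PC, at least 6.25-fold on day 3 (adjusted p = 0.0147, edgeR). Its call was lost whichever of the 4 libraries was left out (0.0756 to 0.145) and in the fit of the 6 day 3 libraries (0.117). These genes were chosen after their values were seen, except LOC111878038.

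Storage changes of the called genes went in both directions, as did those of all tested genes. Of the 112 genes higher in CL, 15 rose and 25 fell in CL between day 0 and day 3, and 19 rose and 15 fell in PC. Of the 87 lower genes, 19 rose and 13 fell in CL, and 17 rose and 16 fell in PC. Over all tested genes, 16.5% rose and 15.5% fell in CL, and 21.5% rose and 18.1% fell in PC. Of the called genes, 47 had 0 counts in PC on both days and 25 had 0 counts in CL on both days. No storage change could be called for them in that cultivar, so these counts and shares are not directly comparable. The storage changes in CL and PC share their day 3 libraries with the comparison of the cultivars.

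The called genes came from several gene types, with different shares called. Of 19259 protein-coding genes tested, 125 were called (0.649%), 28 of them with 0 counts in the lower cultivar. Of 1184 long non-coding RNA genes, 33 were called (2.79%), 29 with 0 counts in the lower cultivar. Of 318 pseudogenes, 9 were called (2.83%), and of 813 GeneIDs with no entry in the reference table, 32 (3.94%). The median absolute log2 fold change over all tested genes of a type was 0.29 for protein-coding genes, 0.56 for long non-coding RNA genes and 0.65 for pseudogenes. No test of these shares was made. None of the 128 small nucleolar, 19 small nuclear, 11 transfer and 5 ribosomal RNA genes tested, nor of 20 of miscellaneous type, was called.

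Called genes stood next to each other in several places, by the order of the tested genes in assembly version 11 of the cultivar Salinas. Genes that were not tested were skipped, so a direct or adjacent neighbour below is the next tested gene, and untested genes may lie between. Of 167 called genes with a position, 24 had a called gene directly beside them (14.4%), as did 318 of the 20935 tested genes with a position (1.52%). Allowing up to 5 steps in this order, 61 called genes formed 23 groups. In 8 groups all members differed in the same direction, and the other groups mixed directions. No such counts of groups were made for other sets of genes, so these numbers have no background beside them. Neither the grouping nor the shared direction was tested, and the members below were chosen after their values were seen unless named before.

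A group with a single direction held LOC111891793, LOC111891801, LOC111891813 and LOC111891935, all higher in CL. LOC111891793 had 4.502 and 5.29 CPM in CL, 7.63 and 8.92 CPM in TG and 0 counts in PC, at least 77.8-fold (adjusted p = 0.000262, edgeR). The long non-coding RNA gene LOC111891801 directly beside it had 13.7 and 13.96 CPM in CL, 13.1 and 11.6 CPM in TG and 0.1605 and 0.193 CPM in PC (78.2-fold, log2 ratio 6.28, SE 0.32, adjusted p = 2.81e-05, edgeR). Both calls held whichever library was left out. LOC111891813 and LOC111891935 were 2.79-fold (adjusted p = 0.0136, edgeR) and 4.31-fold (adjusted p = 0.0227, edgeR) higher, and both calls were lost whichever of the 4 libraries was left out (0.0835 to 0.16 and 0.102 to 0.22). LOC111876575 and LOC111876574, direct neighbours, were 2.43-fold (adjusted p = 0.003, edgeR) and 2.47-fold (adjusted p = 0.0173, edgeR) higher in CL. The first was lost without PC day 3 replicate 2 (0.0628), and the second whichever of the 4 libraries was left out (0.0879 to 0.206). The direct neighbours LOC111903533 and LOC111903532 were 3.86-fold (adjusted p = 0.0121, edgeR) and 54.7-fold (adjusted p = 0.00279, edgeR) lower, of which the first was lost whichever of the 4 libraries was left out (0.0818 to 0.16) and the second without CL day 3 replicate 1 (0.073).

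Other groups mixed directions. LOC111879914, described above, lay between LOC111905497 and LOC111879916, with LOC111905498 next in line. Their log2 fold changes of CL over PC on day 3, in gene order, were -9.53 for LOC111905498, 1.53 for LOC111905497, 7.17 for LOC111879914 and -4.25 for LOC111879916. LOC111905498, a long non-coding RNA gene, had 2.46 and 1.57 CPM in PC and 0 counts in all CL and TG libraries, at least 29.6-fold (adjusted p = 0.0397, edgeR). LOC111905497 had 155 and 149 CPM in CL, 151 and 156 CPM in TG and 52.1 and 53.1 CPM in PC (2.89-fold, adjusted p = 0.00627, edgeR). LOC111879916 had 0.447 and 0.394 CPM in CL and 6.53 and 9.601 CPM in PC (adjusted p = 0.0341, edgeR). In the fits without one of the 4 libraries, LOC111905498 and LOC111879916 passed in none (0.185 to 0.264 and 0.154 to 0.335), and LOC111905497 only without CL day 3 replicate 2. LOC111905498 also missed the threshold with the replicate number as a block (0.114) and with GeneIDs on more than one row left out (0.0518).

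The adjacent pair LOC111885247 and LOC111885246 had counts in different cultivars on day 3. The pseudogene LOC111885247 was expressed in PC and had 0 counts in CL on day 3, as given above. Its protein-coding neighbour LOC111885246 had 1.03 and 1.63 CPM in CL, 2.78 and 2.14 CPM in TG and 0 counts in all PC libraries, at least 21.2-fold (adjusted p = 0.00542, edgeR), a call lost without PC day 3 replicate 1 (0.0604). Each gene thus had counts in the cultivars in which the other had 0 on day 3. Of the called genes with a position, 7 overlap another annotated gene (4.19%, against 6.21% of those tested). Of all 199, 9 stood on more than one row of the tables (4.52%, against 8.34% of tested genes).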

How the data were processed

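RNA from lettuce midribs was read in paired ends on a HiSeq instrument, per the labels' protocols, in 3 cultivars on days 0, 2 and 3 with 2 samples each. Per the submitters' processing notes, the tools were STAR 2.4.0i and featureCounts, with FastQC and Trim Galore, and DESeq2 under R 3.6.1, listed without roles. No source used here gives the build, the annotation or the strand setting. The authors deposited raw counts for each NCBI GeneID on 64021 rows. Counts of the 7574 GeneIDs on more than one row were summed, which left 46150 GeneIDs, of which 40695 (20944 of those tested) matched the RefSeq table of the Salinas version 11 assembly. Its build may differ from that of the files, so no coordinates are given. The values that the authors deposited for day 2 were treated as a score and not as counts. At least 98.9% of the larger values in each library lay within 1 count of a scaled, shifted mean of day 0 and day 3. The day 2 values were not used, so the assumption in the design that they were counts was dropped. Between 68.4% and 74.6% of the deposited counts above 99 were even in a library, as when both mates of a pair are counted, so independent fragments are fewer than counts.

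The 12 libraries of day 0 and day 3, with 35603537 to 59153901 counts, were filtered with filterByExpr, scaled by TMM and fitted with a robust quasi-likelihood model of 6 group means in edgeR 4.0.16 under R 4.3.3. Contrasts were called at a Benjamini-Hochberg adjusted p under 0.05 over 21757 genes. Standard errors are the absolute log2 fold change over the root of its F statistic. CPM values are listed in replicate order. A group with 0 counts enters a fold as a lower bound at 3 counts per library, and floors and exact (Clopper-Pearson) intervals cover counting error only and are too optimistic if mates were counted. Replicates differed by more than sampling noise (chi-square per degree of freedom, counts halved, of 11.2 in CL and 21.5 in PC on day 3). The value was higher in the other groups, at 36.8 in TG on day 3 and 62.7 in CL, 56.7 in PC and 84.8 in TG on day 0. The libraries of these groups also entered the spread behind the day 3 p-values of the main fit.

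Named genes were, among those called with at least 5 CPM in the higher cultivar, the 10 largest and 10 smallest log2 fold changes, and the 5 largest CPM differences in each direction. Others were chosen after their values were seen, as the text says. The comparison, lists and rules were chosen with earlier results of these data known. The planned lists of browning, storage and green-tissue marker genes rest on gene descriptions, which are not among the sources used here, and were not applied. Alternatives were RLE or no scaling, DESeq2 1.42.0, no filter, fits of the 6 or 4 day 3 libraries, GeneIDs on more than one row left out, a replicate block, and each library left out. Leaving out libraries in the other comparisons was added after seeing the data.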

Additional observations from a re-analysis of the deposited data

Results flagged for a closer look

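At 16 of the 69 genes described, the log2 fold change of CL over PC differed between day 3 and day 0. This was a test of the difference itself (edgeR quasi-likelihood test, adjusted over all tested genes). Over all tested genes 23.8% were called in it, 10.6% positive and 13.2% negative. Many of the 69 genes were chosen after their values were seen, so the 16 are no result about them as a set. The values below are day 3 minus day 0, and a negative one can be a wider or a narrower gap between the cultivars. A negative value was found for 13 of the 16 genes. These were -10.55 for LOC111881685, -7.71 for LOC111912931, -6.51 for LOC111881555, -5.28 for GeneID_111902482, -4.53 for LOC111910392, -4.33 for LOC111909355, -3.75 for LOC111903532, -3.71 for LOC111897952, -3.24 for GeneID_111901946, -2.89 for LOC111901911, -2.31 for LOC111918965, -1.55 for LOC111878038 and -1.12 for LOC111891813. A positive value was found for LOC111912424 at 5.52, LOC111891935 at 2.19 and LOC111876574 at 0.98. The adjusted p of these differences ran from 9.79e-05 for GeneID_111902482 to 0.0339 for LOC111876574. At LOC111881555, LOC111912931 and LOC111912424 a group of one day had 0 counts, so the size depends on the prior count.

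LOC111897952 had 423 and 186 CPM in CL on day 0 and 13.8 and 16.1 CPM on day 3, against 1.74 and 0.867 CPM and 1.11 and 0.531 CPM in PC (adjusted p = 0.0293, edgeR). Its day 3 difference (adjusted p = 0.0436, edgeR) lost its call whichever of the 4 libraries was left out (0.19 to 0.395), and its log2 fold change of 4.16 was 4.81 without PC day 3 replicate 1. LOC111891935 had 38.4 and 38.8 CPM in CL and 25.1 and 56.9 CPM in PC on day 0, where PC replicate 2 lay above both CL libraries, and 52.1 and 52.05 CPM and 14.7 and 9.48 CPM on day 3.

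In fits with another setting or without one library, 11 of the 16 differences passed in every fit. Those of LOC111881555, LOC111876574, LOC111891813, LOC111897952 and LOC111903532 did not, with highest adjusted p of 0.0862, 0.127, 0.125, 0.161 and 0.0835. No difference changed sign. The value of LOC111910392 was -10.67 without CL day 3 replicate 1 and -3.71 without replicate 2, and that of LOC111891935 was 1.48 without PC day 0 replicate 2. The value of LOC111901911 was -3.57 without PC day 0 replicate 1. That of LOC111881685 was -9.41 without CL day 0 replicate 1 and -11.18 without replicate 2, and -11.37 without PC day 0 replicate 2. For LOC111912931 it was -7.07 with PC day 3 replicate 1 and -6.95 with CL day 0 replicate 1 left out, and that of LOC111881555 was -7.34 without PC day 0 replicate 1. LOC111897952 gave -3.05 with PC day 3 replicate 1 and -2.99 with CL day 0 replicate 1 left out, and LOC111903532 gave -2.82 without PC day 3 replicate 1.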

How the results depend on the processing

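Of 199 genes called on day 3 (194 at least 2-fold), DESeq2 gave 677 (557), the 6 day 3 libraries alone 1139 (674) and the 4 libraries alone 2128 (1031), which included 197, 196 and 198 of the 199. Without one library the count was 60 to 75, also at 2-fold, and 51 genes (37 higher, 14 lower, 31 of them with 0 counts in the lower cultivar) passed in all 4 such fits. RLE factors gave 198, no scaling 222, no filter 297 and leaving out GeneIDs on more than one row 182. Without scaling the median log2 fold change moved from 0.00 to -0.15 on day 3 and from -0.03 to -0.57 on day 0. TG against PC on day 3 had 316 genes, with 834 by DESeq2, 1261 from the 6 day 3 libraries and 126 to 179 without one library. CL against TG had 171, with 697, 1169 and 60 to 71 in the same order and 270 with no filter. CL against PC on day 0 had 9954 genes and 6777 to 9223 without one library. The difference between days had 5188 genes, 2315 positive and 2873 negative, and 2330 to 5956 without one library: 3235 without PC day 0 replicate 2, 2639 and 3398 without replicate 1 or 2 of PC on day 3, and 2892 and 2330 without replicate 1 or 2 of CL on day 3. Without scaling its split was 3916 and 1836. The cause of these moves was not tested. The fits that left libraries out also had fewer samples. Of 826 refits of the 69 named genes, 685 kept direction and call, 141 kept the direction only and none reversed. Of 230 refits of CL against TG at 21 genes, 47 kept the direction only and none reversed. The replicate block gave 173 genes, 160 of them shared, 127 for CL against TG and 4877 for the difference between days. Deviations of same-numbered libraries of CL and PC on day 3 had a correlation of 0.009, and over all pairs of groups -0.086 to 0.067. Whether same-numbered samples shared a harvest or head is not stated in the labels and was not tested. Depth limits the genes at 0 counts, where 3 counts correspond to 0.0516 to 0.0845 CPM.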
